A study of Mus musculus with 24 samples.

Results

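The comparison described here is the response of PU.1 SpiB double knockout (DKO) B cells to culture with CD40 ligand and interleukin-4 (CD40L + IL-4), and the question is which changes of activation still take place in cells that lose both transcription factors. It rests on 4 of the 24 libraries of the series, the 2 DKO libraries of naive cells and the 2 DKO libraries of cells cultured for 48 h, matched gene by gene on the Entrez ID. All libraries are RNA-seq of lymph node B cells of adult, age- and sex-matched C57BL/6 mice, sorted as B220+ CD3- CD138-. DKO mice were Spi1 fl/fl Cd23T/+ Spib-/-, so that a floxed exon of Spi1 (PU.1) was the target of a Cre transgene while Spib carried germline null alleles. By the account of the study, the floxed exon is only partly lost in naive DKO cells and wholly lost in cultured ones, so PU.1 is not wholly absent before culture. The step from naive to cultured DKO cells therefore also spans the end of that deletion, which cannot be told apart from activation. Control mice were Cd23T/+ and carried the same Cre with both factors intact. PU.1 cKO (Spi1 fl/fl Cd23T/+) and SpiB KO (no Cre, Spi1 fl/fl Cd23+/+ Spib-/-) mice shared the statistical fit, and their values are given beside those of DKO where a result calls for them. The Cre is a BAC transgene driven by the regulatory sequences of Cd23, which become active at the transitional B cell stage. Each genotype and stage is represented by 2 libraries, described as biological replicates, and whether these are separate animals is not given in the sources used here, so every p-value measures only the spread between such libraries.

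All naive libraries stand in 1 deposited count table, together with LPS + IL-4 cultures that are not described here, and all CD40L + IL-4 libraries in another. The stage and the table, with whatever handling went with it, cannot be told apart in any single genotype. A shift common to all genotypes cancels in the difference between the change of DKO and the change of control, which is therefore given as a test of its own. Counts on genes totalled 16094209 and 17594007 in the naive and 9846606 and 10118485 in the cultured DKO libraries, and between 9598674 and 15118541 in the 4 control libraries. Rn45s, the ribosomal RNA precursor, took 6.64% of the counts of cultured DKO replicate 1 and 3.62% of those of naive control replicate 1, against 0.472%, 0.319% and 0.464% in the other DKO libraries. Both libraries that stand apart were kept, and the counts of changed genes are also given without them.

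Naive follicular B cells are small, quiescent lymphocytes that recirculate between blood and lymphoid follicles. CD40L, displayed by helper T cells, engages CD40 and signals through TRAF adaptors to NF-kB. IL-4 binds its receptor and activates the Janus kinases and STAT6. Together they make B cells grow, divide, recombine the immunoglobulin heavy chain locus to IgG1 and IgE, and lower the genes of quiescence and homing. PU.1 and SpiB are closely related ETS family transcription factors that bind the purine-rich PU box, and in mature B cells they occupy many of the same regulatory elements.

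Levels below are CPM (counts scaled to library size, with TMM factors), given for replicate 1 and then replicate 2. Changes are log2 fold changes of cultured over naive cells with their standard error (SE), taken with their adjusted p from edgeR's quasi-likelihood fit. A gene was called when its Benjamini-Hochberg adjusted p over the 13444 genes tested was under 0.15 and its fold change exceeded 1.5, and "rose" and "fell" are used of called genes.

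Markers of B cells were present in all DKO libraries and lower after culture. The summed level of 8 B cell markers was 9819 and 9306 CPM in naive and 5149 and 3955 CPM in cultured DKO cells, against 12481 and 12448 CPM and then 6176 and 7712 CPM in control. Cd79a, which encodes a signalling chain of the B cell receptor (BCR), stood at 2812 and 2454 CPM in naive and 1215 and 1035 CPM in cultured DKO cells. In bulk RNA, fewer cells of a type and less RNA per cell cannot be told apart.

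Markers of several other cell types fell with culture in DKO, and many of them also fell in control. Over all genes tested 26.2% rose and 27.2% fell in DKO, and 24.7% rose and 23.8% fell in control. All 11 plasmacytoid dendritic cell (pDC) markers fell in DKO, their sum going from 3017 and 2681 CPM in naive cells to 45.7 and 46.6 CPM after culture. In control the sum went from 432 and 262 CPM to 160 and 159 CPM, where 8 of the 11 fell and 3 rose. The naive SpiB KO libraries held 2561 and 1995 CPM of these transcripts and the naive PU.1 cKO libraries 393 and 342 CPM, so the high naive sums are those of the 2 genotypes without Spib. Of 18 macrophage and granulocyte markers only 7 were tested, and Cd14, Fcgr1, S100a8 and S100a9 were among those left out. All 7 fell in DKO (1044 and 1069 to 19.59 and 13.98 CPM), but C1qa and Csf1r held only 12 and 22 naive DKO counts. In control 3 fell and 1 rose (249 and 130.1 to 58.2 and 76.2 CPM). A marker silent in all cultured libraries passes the filter of 0.5 CPM in at least 2 libraries only through naive ones. These counts of falls are therefore partly set by the filter. Of 10 NK cell markers 9 fell in DKO (290.3 and 181 to 29.4 and 26.3 CPM) and all 10 in control (167 and 73.4 to 7.31 and 9.09 CPM). Siglech, a defining receptor of pDC, was at 279 and 239.9 CPM in naive and at 0.102 and 0 CPM in cultured DKO cells. pDC carry the B220 on which the cells were sorted. The study linked genes raised in naive cells without SpiB to pDC, macrophages and CD8 T cells, and proposes that SpiB represses such genes in B cells. Transcripts of other cells in the sort and of the B cells themselves cannot be told apart in bulk RNA. Of the 7 conventional dendritic cell markers 6 were tested, and 5 fell in DKO (sum 171 and 149.7 to 12.0 and 12.2 CPM). In control 5 also fell (60.2 and 26.99 to 5.73 and 8.79 CPM). Of 16 T cell markers 13 were tested, of which 8 fell and 3 rose in DKO and their sum went from 711 and 714 to 337 and 326 CPM. In control 9 fell and 3 rose (149 and 94.6 to 113 and 117 CPM). The 4 tested erythroid markers summed to 16.2 and 13.6 CPM in naive and 0.2 and 1.0 CPM in cultured DKO cells, and the 4 tested stromal ones to 146 and 209 and then 27.5 and 15.2 CPM. In control the erythroid sum went from 12.6 and 12.3 to 0.914 and 0.699 CPM. The stromal sum there went from 170 and 204 to 67.4 and 64.1 CPM. Among B cell subsets, 3 of 5 follicular markers fell and 1 rose in DKO (sum 3510 and 3919 to 1112 and 917 CPM). In control 4 fell and none rose (5861 and 6116 to 1998 and 2392 CPM). Of 7 marginal zone or B-1 markers 5 fell and 1 rose in DKO (527 and 562 to 238 and 171 CPM). In control 3 fell and 3 rose, from a lower naive sum (183 and 224 to 208 and 236 CPM). The difference was called more negative in DKO for 4 of these 7, against 7.46% of all genes. Of 9 tested plasma cell markers 5 rose and 1 fell in DKO (1089.9 and 843 to 3078 and 3217 CPM), against 4 and 2 in control (663 and 571 to 1174 and 1455 CPM). Their sum went from 888 and 850 to 2064 and 2375 CPM in PU.1 cKO. In SpiB KO it went from 886 and 752 to 1205 and 1520 CPM. The part of other cell types in any fall described below was not tested.

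**Figure D1:**
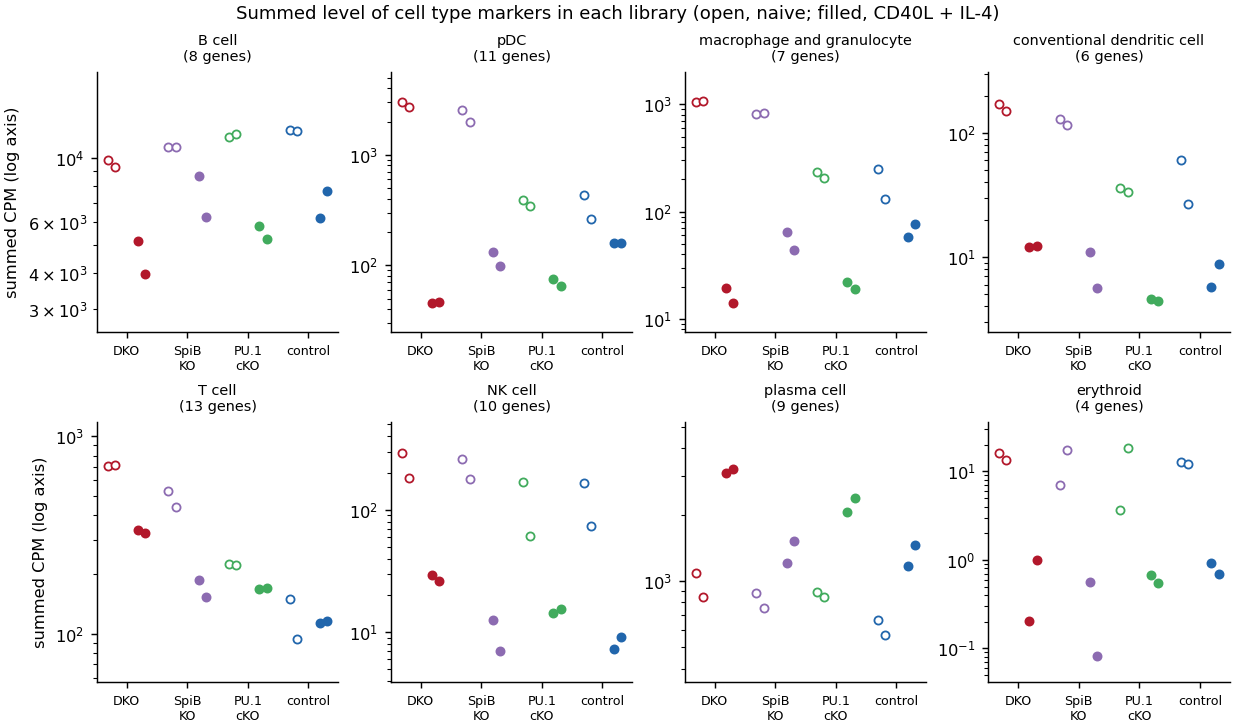
Summed marker levels (CPM, log axis) of 8 cell type lists in each naive and cultured library of the 4 genotypes, 1 point for each library. The pDC sum lies at 2681 CPM or more in both naive DKO libraries and under 50 CPM in both cultured ones, while the B cell sum falls from 9819 and 9306 CPM to 5149 and 3955 CPM.

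The targeted genes were read first. Spib (Entrez ID 272382, chromosome 7 from 44525995 to 44532087 of GRCm38) stood at 103 and 105 CPM in naive DKO cells, where control held 1577 and 1389.7 CPM, and the remaining reads fell to 10.7 and 8.57 CPM after culture (-3.44 ± 0.213, edgeR adjusted p = 3.4e-09). In control cells Spib also fell, to 377 and 501 CPM (-1.76 ± 0.185). Spi1 (Entrez ID 20375, chromosome 2 from 91082374 to 91115759 of GRCm38) was at 107 and 115 CPM in naive DKO and 166 and 178 CPM in naive control cells. Culture brought it to 30.7 and 24.3 CPM in DKO (-2.02 ± 0.181) and to 80.3 and 103 CPM in control (-0.91 ± 0.171), and the difference of the changes was -1.11 (edgeR adjusted p = 0.011). Counts are per gene, so they include transcripts that keep the floxed exon in naive DKO cells and those that have lost only that exon, and Spi1 is also expressed by pDC and macrophages, whose markers fell at the same time.

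DKO B cells changed over slightly more genes than control cells did. Of 13444 genes tested, 3516 (26.2%) rose and 3660 (27.2%) fell in DKO, and 3316 (24.7%) rose and 3193 (23.8%) fell in control. In DKO, 2385 of the rises and 2466 of the falls exceeded 2-fold, and 446 and 439 exceeded 16-fold. At an unadjusted p under 0.05 the changes numbered 8263 in DKO and 7571 in control. Without the Rn45s-rich cultured DKO replicate 1 the DKO count was 7082 in place of 7176, and without the Rn45s-rich naive control replicate 1 the control count was 6033 in place of 6509. The 2 naive and 2 cultured DKO values did not overlap for 7109 of the called genes and for 78.6% of all genes tested.

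The DKO and control changes share no library, so they can be set against each other gene by gene. Of the genes that rose in control, 2499 (75.4%) also rose in DKO, with median rises of 1.56 in control and 1.57 in DKO. Of the genes that fell in control, 2451 (76.8%) also fell in DKO, with medians of -1.29 and -1.44. For 4451 of these 4950 genes the difference between the genotypes was not called, which does not show that the changes were equal. A further 2069 genes were called in DKO and not in control, and 1402 in control and not in DKO, but the difference itself was called for only 492 of the former and 354 of the latter. The change went in opposite directions in 157 genes, 94 that rose in control and fell in DKO and 63 the other way.

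Tested directly, the change of DKO differed from that of control for 1603 genes (11.9%), 600 (4.46%) with a more positive and 1003 (7.46%) with a more negative change in DKO. Without TMM scaling, which shifts the median difference of all genes to -0.14, the split was 458 and 1340. In control the split of 50.9% rises among called genes became 62.5% without TMM, where the median change of all genes was 0.18. Leaving out 1 DKO or control library at a time left between 1173 and 1720 genes with a called difference.

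**Figure D2:**
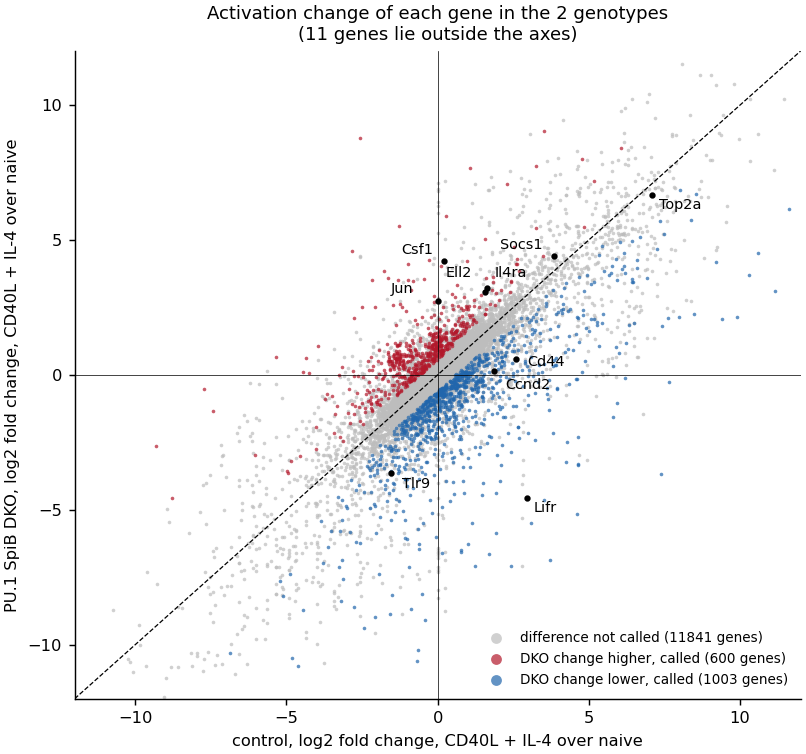
Activation change of each tested gene in control (x axis) and in DKO (y axis), both as log2 fold change of cultured over naive cells; coloured points are genes whose difference between the genotypes was called, and 11 genes lie outside the axes at 12. Most points follow the diagonal, and the 1003 called points under it outnumber the 600 above it.

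The summaries of the gene groups follow, with each group described by its counts and median beside those of all genes, whose median change was -0.03 in DKO and -0.01 in control. Over all genes 26.2% rose and 27.2% fell in DKO, and 24.7% rose and 23.8% fell in control. The difference was called more positive for 4.46% and more negative for 7.46%. Group counts near these shares say nothing particular of the group. Where a group is given with no member in 1 direction, that is edgeR's count; at an unadjusted p under 0.05 it became 1 rise in DKO and 3 in control for BCR signalling (DESeq2 called 0 and 2) and 1 fall in DKO for the ER genes (DESeq2 called 0), and it was 0 by both for the IL-4 response, ribosome biogenesis and quiescence groups.

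**Figure D3:**
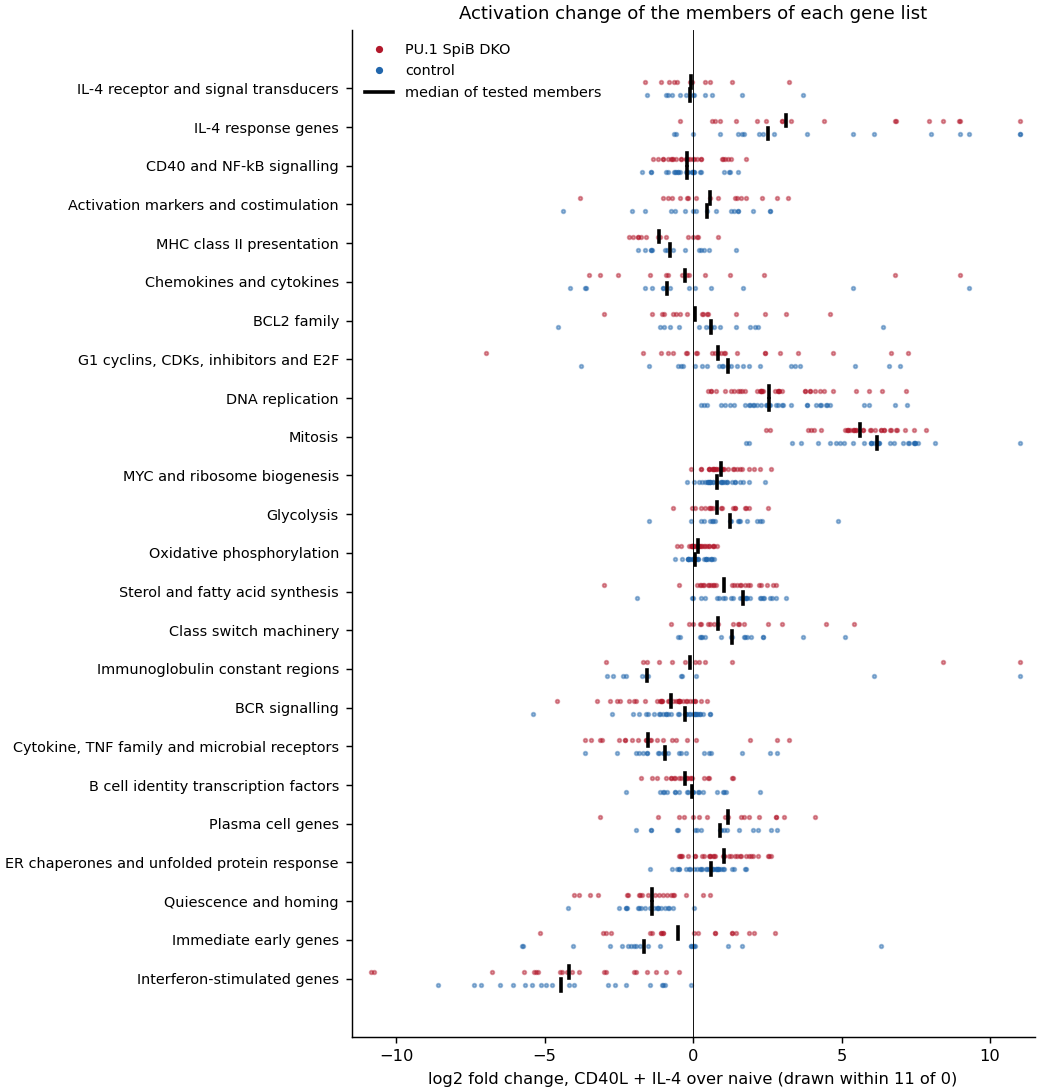
Log2 fold change of cultured over naive cells for each tested member of the 24 gene groups, in DKO and in control, with a tick at the median of each. Mitosis and DNA replication genes lie far to the right and interferon-stimulated genes far to the left in both genotypes, while the ER chaperones sit further right in DKO (median 1.03) than in control (0.59).

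The gene of the IL-4 receptor was raised more in DKO than in control. Il4ra (Entrez ID 16190, chromosome 7 from 125552271 to 125579474 of GRCm38), the ligand-binding chain of the IL-4 receptor, went from 276 and 298 CPM in naive to 2924 and 2481 CPM in cultured DKO cells (3.24 ± 0.162) and from 474 and 591 to 1526 and 1779.8 CPM in control (1.63 ± 0.152). Naive DKO cells lay below and cultured DKO cells above the corresponding control libraries, with no overlap. The difference was 1.60 ± 0.211 (edgeR adjusted p = 0.00018), and the changes in PU.1 cKO and SpiB KO were 2.70 and 2.25. Il2rg, the common gamma chain, fell in DKO (-1.08) and control (-1.56), as did Stat6, the transcription factor that the receptor activates (-0.80 and -0.90). Il13ra1, the partner of Il4ra in the second type of IL-4 receptor, went from 2.44 and 1.05 to 3.27 and 5.23 CPM in DKO and from 0.450 and 0.292 to 4.57 and 5.29 CPM in control. Its rise in DKO was not called without cultured replicate 2 (0.92) or naive replicate 2 (0.80), and its called difference (-2.40) was lost without cultured DKO replicate 1 (-2.11), cultured control replicate 2 (-2.30), naive DKO replicate 1 (-1.69) or naive control replicate 2 (-2.13). Ptpn6, the phosphatase SHP-1 that restrains cytokine and antigen receptors, fell from 519.5 and 629 to 187 and 185 CPM in DKO, more than in control (-1.62 and -0.84, edgeR adjusted p of the difference 0.026). In all, 2 of 12 receptor and transducer genes rose (1 without cultured DKO replicate 2) and 4 fell in DKO, where 26.2% of all genes rose and 27.2% fell, and 3 rose and 4 fell in control, where the shares over all genes were 24.7% and 23.8%. The difference was called for 1 more positive and 2 more negative members, against 4.46% and 7.46% of all genes.

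Most genes that IL-4 induces rose in DKO and in control. Of 18 IL-4 response genes, 16 rose and none fell in DKO (median 3.14), and 15 rose and 1 fell in control (median 2.54). The difference was called for 3 more positive and 2 more negative members, against 4.46% and 7.46% of all genes; without naive DKO replicate 1 it was 5 and 1, without naive DKO replicate 2 2 and 3, without naive control replicate 2 4 and 1, without cultured DKO replicate 2 4 and 1, and without naive control replicate 1 or cultured control replicate 2 3 and 1. Cish, a feedback inhibitor of STAT signalling, went from 1.61 and 0.883 to 322 and 291 CPM in DKO and from 0.300 and 0.657 to 215 and 284 CPM in control. Socs1, another such inhibitor, went from 17.7 and 16.9 to 436 and 300.4 CPM and from 13.5 and 26.6 to 231 and 343 CPM. The changes of Cish were 7.96 ± 0.268 in DKO and 8.998 ± 0.304 in control, those of Socs1 4.41 ± 0.298 and 3.84 ± 0.292, and neither difference was called in the full data (that of Cish was without naive DKO replicate 2, -1.43, and that of Socs1 without naive control replicate 1, 0.98). Nfil3, a bZIP transcription factor needed for IgE switching, rose from 3.08 and 1.66 to 307 and 229 CPM in DKO and from 1.05 and 1.53 to 324 and 355 CPM in control. Its rise was smaller in DKO (-1.19 ± 0.384, edgeR adjusted p = 0.083), a call that was lost without cultured control replicate 2 (-1.12), cultured DKO replicate 2 (-0.99), naive control replicate 1 (-0.95) or naive DKO replicate 1 (-0.69) and with voom (-0.64). The survival kinase gene Pim1 rose from 36.4 and 35.2 to 280.5 and 285 CPM. Socs3, of the same inhibitor family as Socs1, went from 13.7 and 8.61 to 54.2 and 45.5 CPM in DKO and from 11.3 and 11.6 to 29.7 and 35.2 CPM in control, a difference of 0.66 that was called only without naive DKO replicate 1 (1.03), with voom, with all 24 libraries or with a replicate block within each stage. Batf, required for class switching, rose from 16.1 and 17.1 to 123 and 140.3 CPM in DKO and from 14.3 and 12.99 to 63.5 and 74.5 CPM in control. The members that were not called in DKO were Cd86, a costimulatory ligand (19.01 and 20.04 to 15.7 and 13.3 CPM), and Mybl1, of a MYB family factor (1.09 and 1.38 to 3.06 and 1.62 CPM, called without cultured replicate 2, 1.30).

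Chemokine genes of the IL-4 programme appeared from very low levels in both genotypes. Ccl22, which attracts CCR4-bearing T cells, went from 0.193 and 0.386 to 182 and 124 CPM in DKO and from 0.225 and 0.146 to 69.4 and 174 CPM in control. Ccl17, the other CCR4 ligand, rested on 3 naive counts in each genotype, and the ratio of cultured to naive counts was 119 (95% counting interval 40.1 to 580.4) in DKO and 42.5 (95% counting interval 14.1 to 209) in control. The cultured libraries of the genotypes overlapped for Ccl22. For the whole group of 14 tested chemokine and cytokine genes, 4 rose and 6 fell in DKO against 2 and 6 in control. The shares over all genes were 26.2% and 27.2% in DKO and 24.7% and 23.8% in control. No difference was called by edgeR (2 of 14 had an unadjusted p under 0.05, both more positive in DKO, and DESeq2 called 0). Ltb, a lymphotoxin subunit that B cells use to organise follicles, fell from 967 and 896 to 67.5 and 142 CPM in DKO and from 1652 and 1481 to 70.5 and 106 CPM in control. Il10, of the suppressive cytokine, rose from 0.899 and 0.497 to 3.37 and 3.97 CPM in DKO, while control stood at 0.0750 and 0 and then 0.166 and 0.0999 CPM, too few counts for a fold.

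Fcer2a, the gene of the low-affinity IgE receptor CD23 and the source of the regulatory sequences that drive Cre, rose in DKO and not in control. It went from 159.7 and 207 to 244 and 331 CPM in DKO (0.65 ± 0.158) and was at 1411 and 1513 CPM in naive and 968 and 1015 CPM in cultured control cells (-0.56 ± 0.156, not called). The call in DKO was lost without cultured replicate 2 (0.41) or naive replicate 1 (0.47), and a fall was called in control without cultured replicate 2 (-0.59) or naive replicate 1 (-0.61). Even after the rise both DKO libraries held less than any control library. The difference of the changes was 1.21 ± 0.222 (edgeR adjusted p = 0.0028). In PU.1 cKO the gene fell (-1.70), and in SpiB KO its change was 0.30.

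Promoters were read for the 10116 tested genes that RefSeq (GRCm38.p6) matched, from 250 bases before to 50 after each start site, and every motif was sought on both strands. The STAT6 motif, TTC and GAA with any 4 bases between them, lies in 5.43% of all 12821 promoters and in 2 of 17 promoters of the IL-4 response genes, and the general STAT motif TTCNNNGAA, with 3 bases between, in 6.82% of all and 3 of those 17. A match is a run of letters and not a site known to be bound. Examples from this group are shown in part, 5′ to 3′ on the gene's strand, with the STAT letters in capitals; the second match of Ccl17 also holds the letters TTTGAA sought below.
Ccl17, chr8:94810281-94810380 (plus strand): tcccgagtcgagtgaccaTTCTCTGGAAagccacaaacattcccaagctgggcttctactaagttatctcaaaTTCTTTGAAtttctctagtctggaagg
Socs3, chr11:117969467-117969566 (minus strand): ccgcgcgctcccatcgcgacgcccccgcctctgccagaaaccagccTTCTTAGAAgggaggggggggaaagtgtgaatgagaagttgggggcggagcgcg
Fcer2a, chr8:3690975-3691074 (minus strand): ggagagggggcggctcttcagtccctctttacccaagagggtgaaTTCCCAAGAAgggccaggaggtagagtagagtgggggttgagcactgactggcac

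Cd40 stood lower in DKO than in control at both stages. It fell in DKO from 52.8 and 55.1 to 29.7 and 36.97 CPM (-0.69 ± 0.181), a call that was lost without cultured replicate 1 (-0.54). Control held 159 and 151 CPM before and 108 and 154 CPM after culture (-0.24 ± 0.173, not called). Both DKO stages lay below both control stages, and the difference in change was called only without cultured control replicate 1 (-0.69). Of 26 CD40 and NF-kB genes, 6 rose and 9 fell in DKO, where 26.2% of all genes rose and 27.2% fell. In control 4 rose and 7 fell, where the shares over all genes were 24.7% and 23.8%. The 3 called differences were all positive, where 11.9% of all genes had a called difference and 4.46% a positive one. Only 1 was called without naive DKO replicate 1 or without naive control replicate 2. Nfkb1, the p50 precursor, rose from 215 and 283 to 812 and 901 CPM in DKO and from 311 and 341 to 857 and 655 CPM in control. Tnfaip3, the NF-kB inhibitor A20, rose by 1.16 and 1.03. The inhibitor gene Nfkbia fell in both (-1.36 and -1.73), as did Relb (-1.02 and -1.41) and Traf5 (-1.20 and -1.42). Bcl3, an atypical IkB protein that acts in the nucleus, rose in DKO from 74.4 and 68.8 to 152 and 137 CPM, while control went from 103 and 114 to 93.5 and 120.3 CPM. The difference for Bcl3 was 1.04 ± 0.194 (edgeR adjusted p = 0.0033), and that for Map3k14, the kinase NIK, was 1.25 ± 0.367 (edgeR adjusted p = 0.053), which was not called without cultured control replicate 2 (1.10), naive DKO replicate 1 (0.97) or naive control replicate 2 (0.91).

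Surface activation markers split into shared and differing members. Tfrc, the transferrin receptor, rose from 45.5 and 45.8 to 210.1 and 247 CPM in DKO (2.32) and by 2.02 in control. Il2ra, the IL-2 receptor alpha chain, rose from 4.69 and 6.57 to 39.1 and 40.6 CPM in DKO and from 1.80 and 1.46 to 8.80 and 10.9 CPM in control (2.82 and 2.59), from a higher start. Icosl, the ligand of the T cell costimulator ICOS, fell from 162 and 236 to 10.5 and 17.8 CPM in DKO (-3.81) and also in control (-4.39). Cd44, the hyaluronan receptor that marks activated lymphocytes, behaved otherwise. It was at 253 and 234 CPM in naive DKO cells and 360.2 and 369 CPM after culture (0.58 ± 0.157, just under the fold required, and called without cultured replicate 1 (0.61) or naive replicate 1 (0.64)), while control went from 118 and 98.5 to 637 and 670.4 CPM (2.59 ± 0.166). Naive DKO libraries were thus above and cultured DKO libraries below those of control, and the difference was -2.01 ± 0.224 (edgeR adjusted p = 4.4e-05). In the list of 17 tested markers, 8 rose and 4 fell in DKO against 7 and 5 in control. The shares over all genes were 26.2% and 27.2% in DKO and 24.7% and 23.8% in control.

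**Figure D4:**
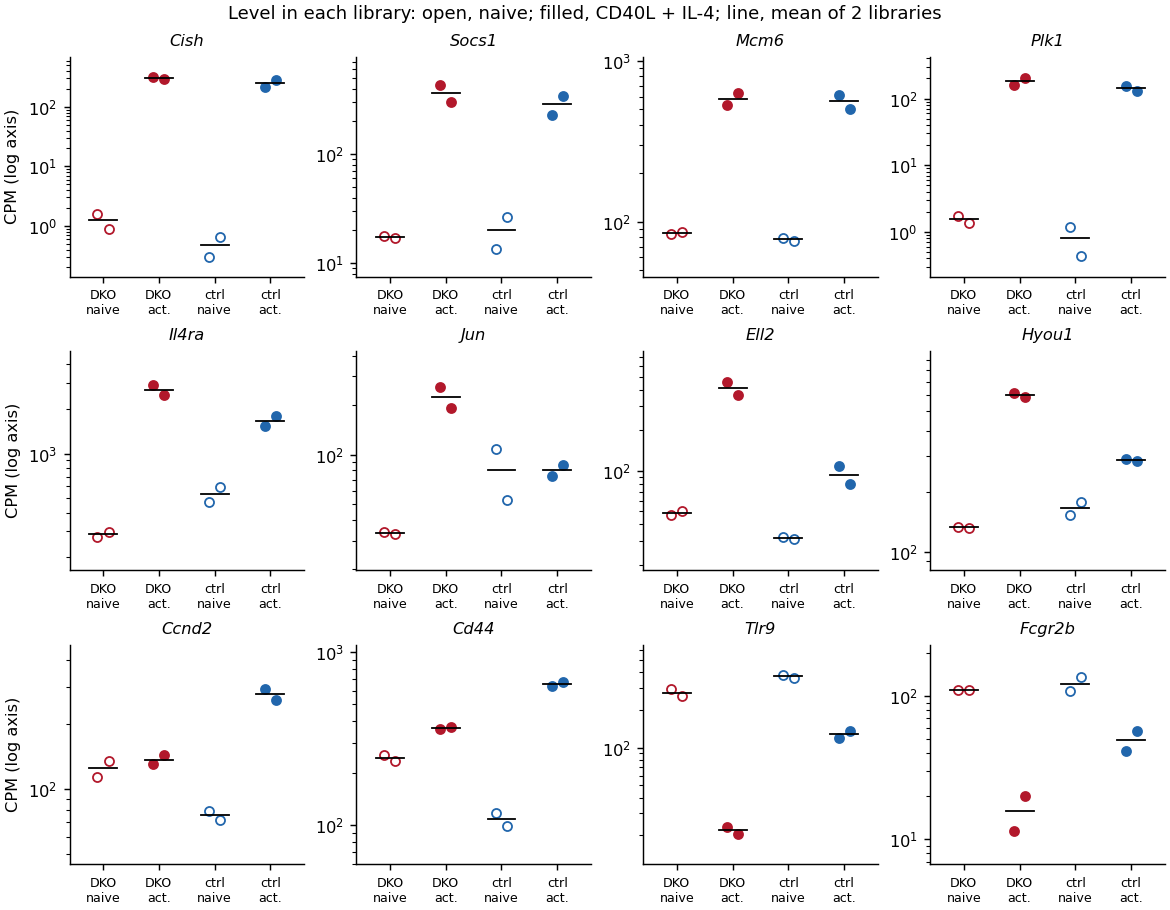
Level (CPM, log axis) of 12 genes in every naive and cultured DKO and control library, 1 point for each library. Cish, Socs1, Mcm6 and Plk1 rise alike in both genotypes. Il4ra, Ell2 and Hyou1 rise further in DKO, and a rise of Jun was called in DKO and not in control. Ccnd2 and Cd44 rise in control, while in DKO the Ccnd2 points stay close together and those of Cd44 move less than in control. Tlr9 and Fcgr2b fall further in DKO.

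The genes of cell division rose in DKO as they did in control. All 32 mitosis genes rose in DKO (median 5.61) and in control (median 6.19), and 35 of 36 DNA replication genes rose in DKO and 33 in control, with medians of 2.56 and 2.57. Mcm6, a subunit of the replicative helicase, went from 84.3 and 85.95 to 531 and 633 CPM in DKO and from 79.4 and 76.02 to 617 and 505 CPM in control (2.77 ± 0.164 and 2.85 ± 0.165). Cdc6, which loads that helicase on origins, went from 1.03 and 0.938 to 69.8 and 91.2 CPM and from 0.750 and 0.730 to 85.7 and 80.3 CPM. Naive and cultured values lie far apart in both genotypes, and the cultured values of the genotypes overlap. Rrm2, the inducible subunit of ribonucleotide reductase, rose by 5.94 in DKO and 5.92 in control. Only Cdt1, the partner of Cdc6, was not called in DKO (63.3 and 64.8 to 93.2 and 90.3 CPM). Tyms, thymidylate synthase, rose less in DKO (3.78 against 5.75, edgeR adjusted p of the difference 0.0075), with a naive level of 8.41 and 4.36 CPM against 1.43 and 2.04 CPM in control and a cultured level of 75.5 and 99.1 CPM against 92.3 and 95.3 CPM.

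Among mitosis genes, Plk1, the polo-like kinase, went from 1.73 and 1.38 to 158 and 205 CPM in DKO and from 1.20 and 0.438 to 152 and 132 CPM in control. Cdk1, the mitotic kinase, went from 3.08 and 2.26 to 157 and 177 CPM and from 1.95 and 1.46 to 126 and 129 CPM. Top2a, which untangles sister chromatids, rose by 6.68 and 7.08. These genes were nearly silent in naive cells of both genotypes. The difference was called for 1 more positive and 2 more negative members, where the shares over all genes were 4.46% and 7.46%. Espl1, the gene of separase, rose less in DKO (5.23 against 7.47) and Mad2l1, of the spindle checkpoint, more (2.60 against 1.88). The latter difference of 0.72 was not called without naive DKO replicate 2 (0.58) or cultured control replicate 1 (0.61). Ttk, a spindle checkpoint kinase gene with no count in naive control cells, was at 0.193 and 0.386 CPM in naive and 20.2 and 22.6 CPM in cultured DKO cells. The number of mitosis genes with a smaller rise in DKO went from 2 to 7 without naive DKO replicate 2 and to 5 without naive control replicate 1.

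Any of the E2F sequences TTTCCCGC, TTTGGCGC and TTTCGCGC lies in 13 of 33 promoters of the replication genes (39.4%), in 3.47% of all promoters, in 5.63% of those of genes that rose in DKO and in 1.85% of those of genes that fell. The CHR letters TTTGAA lie in 21 of 27 promoters of the mitosis genes (77.8%) and in 12.3% of all. Examples of both are shown because nearly all members of these groups rose in both genotypes, with the motif in capitals; on the opposite strand it reads as its reverse complement.
Cdc6, chr11:98907967-98908066 (plus strand): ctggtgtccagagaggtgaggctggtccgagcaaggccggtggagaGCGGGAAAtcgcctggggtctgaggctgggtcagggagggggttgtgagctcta
Orc1, chr4:108579381-108579453 (plus strand): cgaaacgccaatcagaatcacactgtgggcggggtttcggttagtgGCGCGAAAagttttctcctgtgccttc
Mki67, chr7:135716434-135716533 (minus strand): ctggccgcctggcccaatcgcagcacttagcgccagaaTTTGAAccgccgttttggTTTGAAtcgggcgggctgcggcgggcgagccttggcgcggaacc
Ube2c, chr2:164769853-164769928 (plus strand): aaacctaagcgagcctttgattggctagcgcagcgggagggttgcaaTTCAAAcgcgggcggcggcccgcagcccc
Top2a, chr11:99024197-99024378 (minus strand): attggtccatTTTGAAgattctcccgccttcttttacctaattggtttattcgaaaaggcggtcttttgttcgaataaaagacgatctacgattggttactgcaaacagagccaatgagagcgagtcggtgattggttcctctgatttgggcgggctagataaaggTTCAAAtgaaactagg
Orc1 encodes a subunit of the origin recognition complex and rose from 0.899 and 0.552 to 27.8 and 37.6 CPM in DKO. Mki67, the gene of the proliferation antigen Ki-67, rose from 1.61 and 0.497 to 210.5 and 81.1 CPM, and Ube2c, the ubiquitin-conjugating enzyme of the anaphase complex, from 2.505 and 1.27 to 203 and 223 CPM.

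The regulators of G1 were less alike than the machinery of replication. Of 23, 14 rose and 5 fell in DKO and 15 rose and 2 fell in control, and 7 had a more negative change in DKO (4 without cultured control replicate 2, cultured DKO replicate 2 or naive DKO replicate 1). Ccnd2, the cyclin D2 gene, was at 114 and 135 CPM in naive and 130.2 and 144 CPM in cultured DKO cells, a change of 0.14 ± 0.188 that was not called. In control it rose from 78.9 and 72.01 to 293 and 261 CPM (1.88 ± 0.194), and the difference was -1.74 ± 0.268 (edgeR adjusted p = 0.00067). DKO libraries lay above those of control before culture and below them after it. The rises of PU.1 cKO and SpiB KO were 1.19 and 1.55. Cdk4, the kinase partner of cyclin D, rose in both genotypes (0.94 and 1.29), as did the E2F repressor gene E2f8 (7.23 and 6.95). E2f2, at 218 and 188 CPM in naive DKO cells, was not called (0.11) but rose in control (1.01, edgeR adjusted p of the difference 0.014). Cdkn1b, the inhibitor p27, fell in both (-1.68 and -1.47). Ccnd1 fell from 129.98 and 137 to 1.12 and 0.992 CPM in DKO and from 24.1 and 7.51 to 0.914 and 1.40 CPM in control, next to the fall of the pDC markers, whose part in it was not tested. Myc rose in DKO from 64.2 and 80.04 to 133 and 164 CPM (1.04) and was not called in control (0.45; 0.63 and called without naive replicate 1), with no called difference.

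Growth genes rose with division. Of 29 genes of ribosome biogenesis, 23 rose and none fell in DKO (median 0.93) and 17 rose in control (median 0.81). Ncl, nucleolin, went from 237 and 357 to 1822 and 1864 CPM in DKO (2.64) and rose by 2.43 in control. Of 18 glycolysis genes 11 rose and 1 fell in DKO, and 14 rose and 1 fell in control. Pkm, pyruvate kinase, rose from 361 and 357 to 1067 and 1424 CPM and Ldha, lactate dehydrogenase, from 374 and 329 to 957 and 1401 CPM in DKO. Slc2a3, a glucose transporter, fell in control (-1.49) and was at 63.3 and 53.4 and then 48.9 and 64.1 CPM in DKO, not called (edgeR adjusted p of the difference 0.0023). Oxidative phosphorylation genes moved little: 4 of 28 rose in DKO and 3 in control, with medians of 0.16 and 0.06, and only 1 rise was called in DKO without cultured or without naive replicate 2. Atp5b, a subunit of ATP synthase, was at 1182 and 1089 CPM before and 1561 and 2082 CPM after culture of DKO cells, a rise (0.68) that was not called without cultured replicate 2 (0.46).

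Genes of sterol and fatty acid synthesis rose in both genotypes, some of them less in DKO. Of 26 tested genes 17 rose and 1 fell in DKO (median 1.05) and 21 rose and 1 fell in control (median 1.69), and 7 had a called smaller rise or larger fall in DKO, 4 without naive DKO replicate 1. Sqle, squalene epoxidase, rose alike, from 23.4 and 16.7 to 142 and 118 CPM in DKO and from 23.9 and 23.4 to 171 and 129.8 CPM in control. Mvd, of the mevalonate pathway, rose from 21.7 and 16.6 to 70.9 and 66.9 CPM in DKO and from 9.98 and 11.02 to 75.00 and 71.2 CPM in control (1.85 against 2.80, edgeR adjusted p of the difference 0.015). Scd1, stearoyl-CoA desaturase, fell in both, from 3893 and 3906 to 585 and 394 CPM in DKO and from 3446 and 3201 to 918 and 886 CPM in control, and fell further in DKO (-1.11 ± 0.234, edgeR adjusted p = 0.0078). Its relative Scd2 rose in control (1.34) and was not called in DKO (0.35).

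Constant region transcripts of the IL-4 isotypes rose in DKO and in control. Counts per gene do not separate transcripts of switched cells from those of unswitched cells, so they do not measure switching. By flow cytometry later in such cultures, the study found fewer IgG1+ B cells in DKO than in control. Ighg1, the IgG1 constant region, went from 2.57 and 1.21 to 665 and 615 CPM in DKO and from 5.10 and 1.17 to 256 and 166 CPM in control. The larger rise in DKO (2.34 ± 0.659, edgeR adjusted p = 0.044) was not called without naive control replicate 1 (0.93) or naive DKO replicate 2 (1.88). Ighe, the IgE constant region, had no count in naive cells of either genotype and stood at 31.7 and 91.2 CPM in cultured DKO and 56.6 and 44.6 CPM in cultured control cells, at least 711-fold and 461-fold higher than a floor of 3 counts over the 2 naive libraries. Of 17 genes of the switch machinery, 11 rose and 1 fell in DKO and 11 rose in control. Ung, which removes uracil from DNA, rose less in DKO (1.55 against 2.36), and Prkdc, of end joining, rose only in control (1.28 against 0.24). Both differences were lost without cultured control replicate 1 (-0.81 for Ung and -0.66 for Prkdc) or naive control replicate 2 (-0.65 and -0.91), where 1 of the 3 smaller rises of the group was still called. That of Ung was also lost without cultured DKO replicate 1 (-0.70), cultured control replicate 2 (-0.80) or naive DKO replicate 1 (-0.74), and that of Prkdc without cultured DKO replicate 2 (-0.92) or naive DKO replicate 2 (-0.86).

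The other immunoglobulin genes differed between the genotypes. Ighm, the IgM constant region, rose from 5861 and 5881 to 15375 and 13547 CPM in DKO and was at 7728 and 7396 and then 7493 and 8705 CPM in control, a difference of 1.20 ± 0.207 (edgeR adjusted p = 0.0017; 0.62 and not called with voom and quantile normalization). Igkc, of the kappa light chain, fell in control from 5786 and 5078 to 1569.6 and 2269 CPM and was at 2598 and 2424 and then 3194 and 3414 CPM in DKO, a difference of 1.90 ± 0.238 (edgeR adjusted p = 0.00012). For both genes the cultured DKO libraries lay above the cultured control ones. Ighd, the IgD constant region that naive cells splice from the same transcript as Ighm, fell in both (-2.93 and -2.71). Over the 12 tested constant region genes, 3 rose and 4 fell in DKO, near the 26.2% and 27.2% of all genes. In control 2 rose and 7 fell, against 24.7% and 23.8% of all genes. A more positive change in DKO was called for 4, or 2 without naive DKO replicate 2, against 4.46% of all genes. Constant regions share sequence with each other, so the split of reads between them is uncertain.

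Several genes of the plasma cell programme rose further in DKO. The study named Prdm1, Ell2, Cebpb, Irf4 and Xbp1 as raised in DKO from these same cultured libraries, so their direction is not independent evidence. Of 17 tested genes 10 rose and 1 fell in DKO (median 1.19) and 8 rose and 3 fell in control (median 0.92), and 8 had a more positive change in DKO. That count was 4 without cultured control replicate 1 and 5 without naive DKO replicate 2. Prdm1, the gene of BLIMP-1, which ends the B cell programme, went from 3.02 and 2.26 to 42.96 and 47.9 CPM in DKO and from 1.05 and 1.60 to 7.89 and 8.69 CPM in control (1.48 ± 0.397, edgeR adjusted p = 0.035; 1.14 and not called without naive control replicate 2). Ell2, an elongation factor for secretory immunoglobulin transcripts, went from 46.5 and 50.4 to 454 and 365 CPM in DKO and from 32.04 and 31.2 to 107 and 79.3 CPM in control (1.51 ± 0.262, edgeR adjusted p = 0.0017). In both cases the cultured DKO libraries lay several-fold above the cultured control ones. Cebpb, a bZIP transcription factor, rose from 6.42 and 6.51 to 16.3 and 13.3 CPM in DKO and fell from 15.6 and 15.03 to 5.15 and 6.29 CPM in control (2.61 ± 0.342, edgeR adjusted p = 0.00017). Xbp1, which drives secretion, rose from 259.5 and 209.8 to 1554 and 1700.0 CPM in DKO and from 204 and 206 to 764 and 911 CPM in control, and Irf4 by 1.72 and 0.92. The called difference of Xbp1 (0.76) was lost without cultured control replicate 1 (0.64), cultured DKO replicate 2 (0.70) or naive DKO replicate 2 (0.62). That of Irf4 (0.80) was lost without cultured control replicate 1 (0.71), cultured DKO replicate 2 (0.70), naive control replicate 2 (0.73), naive DKO replicate 1 (0.79) or naive DKO replicate 2 (0.80). Sdc1, which encodes the CD138 used to exclude plasma cells from the sort, fell in both (-1.18 and -1.92), from 43.03 and 36.2 to 18.5 and 16.5 CPM in DKO. In PU.1 cKO the changes of Prdm1, Ell2 and Cebpb were 6.005, 3.15 and 0.56, and in SpiB KO 1.67, 1.89 and -0.65.

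Many chaperones of the endoplasmic reticulum (ER) also rose further in DKO. Of 32 ER and unfolded protein response genes, 20 rose and none fell in DKO (median 1.03), 16 rose and 2 fell in control (median 0.59), and 15 had a more positive change in DKO and none a more negative one. Without cultured control replicate 1 the 15 became 9. From the same cultured libraries the study reported raised protein processing genes in DKO, so this direction is not independent evidence either. Hyou1, a large ER chaperone, went from 134 and 132 to 617 and 591 CPM in DKO and from 152 and 178 to 291 and 283 CPM in control (2.19 ± 0.151 and 0.80 ± 0.146, edgeR adjusted p of the difference 0.00049). Hspa5, the gene of BiP, rose from 565 and 632 to 2207 and 2201 CPM in DKO and from 583 and 617 to 936 and 1211 CPM in control. Naive levels of both genes were close between the genotypes and cultured levels were not. Creld2, Pdia6, Calr and Dnajb11 also had larger changes in DKO (1.52, 1.12, 1.01 and 0.80). Not every member differed: Pdia4, a disulfide isomerase gene, rose by 2.03 and 1.77 with no called difference.

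The ER stress element, CCAAT and CCACG with any 9 bases between them, lies in 17 of all 12821 promoters (0.133%), in 8 of 25 promoters of the ER genes and in 7 of 435 promoters of the genes with a more positive change in DKO (1.61%). These last shares are not separate results, because 15 of the ER genes are themselves among those with a more positive change. It is printed for 4 chaperone and folding genes with a called larger rise in DKO, with the whole element in capitals.
Creld2, chr15:88819479-88819578 (plus strand): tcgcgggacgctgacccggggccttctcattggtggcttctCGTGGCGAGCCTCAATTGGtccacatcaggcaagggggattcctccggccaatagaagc
Pdia6, chr12:17266450-17266549 (plus strand): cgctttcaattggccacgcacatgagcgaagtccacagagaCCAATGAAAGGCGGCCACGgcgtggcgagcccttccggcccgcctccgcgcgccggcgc
Hspa5, chr2:34771984-34772083 (plus strand): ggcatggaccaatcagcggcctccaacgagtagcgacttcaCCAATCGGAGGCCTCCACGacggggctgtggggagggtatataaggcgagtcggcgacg
Calr, chr8:84847035-84847134 (minus strand): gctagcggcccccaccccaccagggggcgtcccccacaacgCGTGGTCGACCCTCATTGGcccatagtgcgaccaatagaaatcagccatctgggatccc

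**Figure D5:**
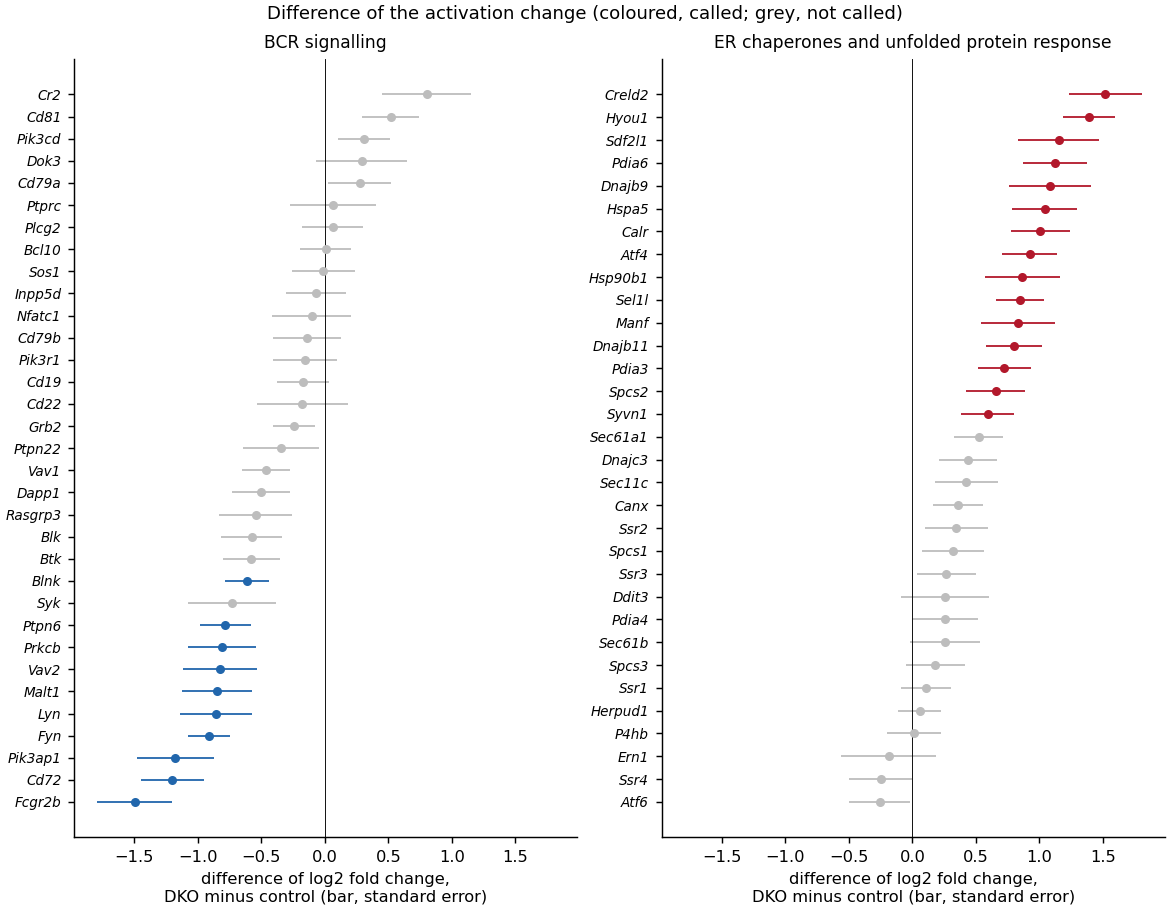
Difference between the activation change of DKO and that of control (log2 scale) with its standard error for the BCR signalling genes and the ER and unfolded protein response genes shown; coloured points are called and grey points are not. The called BCR genes all lie left of 0 and the called ER genes all lie right of 0.

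BCR signalling genes moved the other way. Of 34, none rose and 18 fell in DKO (median -0.75), none rose and 14 fell in control (median -0.27), and 10 had a more negative change in DKO and none a more positive one (14 and 2 at an unadjusted p under 0.05). Some members were named by the study from these same libraries, so the direction is not independent evidence. The 10 became 5 without naive DKO replicate 2 or without naive control replicate 1. Cd72, an inhibitory coreceptor, fell from 351 and 344 to 40.00 and 34.2 CPM in DKO and from 291 and 285 to 67.6 and 73.8 CPM in control (-1.20 ± 0.251, edgeR adjusted p = 0.0076). Fcgr2b, the inhibitory IgG receptor, fell from 111 and 110.02 to 11.4 and 20.1 CPM and from 108 and 135 to 41.7 and 57.3 CPM (-1.50 ± 0.296, edgeR adjusted p = 0.005). For both genes naive levels were alike and cultured DKO levels lower than those of control. Pik3ap1, the adaptor BCAP, fell in both (-1.92 and -0.74, the latter -0.41 and not called without cultured control replicate 2) with a difference of -1.18 ± 0.301 (edgeR adjusted p = 0.026). Lyn, the first kinase of the pathway, also fell in both (-1.99 and -1.14), and its called difference of -0.86 was lost without cultured DKO replicate 2 (-0.60), cultured control replicate 2 (-0.77), naive DKO replicate 2 (-0.78) or naive control replicate 1 (-0.70). Syk fell strongly in both genotypes (-2.56 and -1.83) without a called difference. Blnk, the adaptor that links SYK to phospholipase C, was at 257 and 277 and then 190.3 and 192 CPM in DKO and 264 and 299 and then 304 and 313 CPM in control; its called difference (-0.61) was lost without naive DKO replicate 2 (-0.56) or naive control replicate 1 (-0.53). Malt1 and Prkcb, of the pathway to NF-kB, fell in DKO (-1.09 and -1.07) and were not called in control (-0.24 and -0.26), with called differences of -0.85 and -0.81. Both were lost without cultured control replicate 1 (-0.59 and -0.56), naive control replicate 1 (-0.78 and -0.72) or naive DKO replicate 2 (-0.73 and -0.57), that of Malt1 also without cultured DKO replicate 2 (-0.76) and that of Prkcb without cultured DKO replicate 1 (-0.77). Cr2, the complement receptor CD21, fell from 579 and 667 to 17.8 and 34.3 CPM in DKO and from 637 and 787 to 14.9 and 19.5 CPM in control. Cd79a and Cd79b fell in both without a called difference.

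The PU box letters GAGGAAGT lie in 5 of 35 promoters of the BCR signalling genes (14.3%), in 3.31% of all promoters, in 4.41% of those of genes with a more negative change in DKO and in 2.3% of those of genes with a more positive one. They are shown for Cd72, whose fall was larger in DKO, and for Vav1, a guanine nucleotide exchange factor that was not called in either genotype (-0.22 and 0.24; the difference was called without naive control replicate 2, -0.63), with the letters in capitals.
Cd72, chr4:43454627-43454721 (minus strand): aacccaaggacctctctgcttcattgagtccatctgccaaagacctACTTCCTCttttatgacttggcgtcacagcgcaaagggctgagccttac
Vav1, chr17:57279043-57279099 (plus strand): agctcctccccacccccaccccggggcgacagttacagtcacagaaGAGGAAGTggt

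Receptors for cytokines and microbial products were mostly lowered by culture. Of 22 tested, 3 rose and 15 fell in DKO (median -1.52), and 3 rose and 13 fell in control (median -0.95). The difference was called for 2 more positive and 2 more negative members, against 4.46% and 7.46% of all genes. It was called for 6 more negative ones without cultured control replicate 1 and 4 without cultured DKO replicate 1. Tlr9, the receptor of unmethylated DNA, fell from 293 and 258 to 23.4 and 20.5 CPM in DKO (-3.65 ± 0.188) and from 385 and 359 to 119.5 and 136 CPM in control (-1.54 ± 0.169). The difference was -2.11 ± 0.242 (edgeR adjusted p = 6.0e-05), and the falls of PU.1 cKO and SpiB KO were -1.78 and -1.66. Tlr9 is also expressed by pDC, and the part of the falling pDC markers was not tested. Ly86, the partner of the receptor CD180, fell from 349.9 and 295 to 67.3 and 65.7 CPM in DKO (-2.28), more than in control (-1.02; difference -1.25 ± 0.233, edgeR adjusted p = 0.0031). Tlr4, the receptor of lipopolysaccharide, fell in both (-1.86 and -1.54), as did Tnfrsf13c, the BAFF receptor (-1.23 and -0.94). Tlr7, of single-stranded RNA, was not called in either (0.11 and 0.37). Il5ra, of the IL-5 receptor, rose from 15.8 and 18.5 to 51.2 and 77.4 CPM in DKO and went from 25.4 and 29.2 to 39.4 and 42.8 CPM in control, with a called difference of 1.31.

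Most genes of MHC class II presentation fell. Of 14 presentation genes, 1 rose and 9 fell in DKO (median -1.15) and 1 rose and 8 fell in control (median -0.78). H2-Aa fell from 10311 and 8305 to 3336 and 2827 CPM in DKO and from 13386 and 11656 to 4082 and 5603 CPM in control. Ctss, the protease that trims the invariant chain, fell in both (-2.15 and -1.63), while Ifi30, of a lysosomal thiol reductase, rose in both (0.85 and 1.46; the difference was called without cultured control replicate 1, -0.87). Lgmn, the protease legumain, fell from 110.1 and 104 to 33.4 and 30.7 CPM in DKO and was at 207 and 185 and 217 and 254 CPM in control, the single called difference of the group (-2.01 ± 0.236, edgeR adjusted p = 6.9e-05).

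Transcription factors of B cell identity changed in both directions. Of 21, 2 rose and 7 fell in DKO and 5 rose and 7 fell in control, and the difference was called for 2 more positive and 5 more negative members, against 4.46% and 7.46% of all genes. The 5 became 3 without naive control replicate 1, and the 2 became 1 without cultured replicate 1 of either genotype, cultured control replicate 2 or naive DKO replicate 1. Mef2b, a MEF2 family factor, rose in control from 8.33 and 4.30 to 28.8 and 32.1 CPM and was at 7.45 and 2.59 and then 5.20 and 4.15 CPM in DKO, a difference of -2.36 ± 0.547 (edgeR adjusted p = 0.015). Its change in DKO was called a rise without naive replicate 1 (0.84) and a fall without naive replicate 2 (-0.68). Pax5, which maintains B cell identity, fell in DKO from 195 and 214 to 125 and 92.4 CPM (-0.92) and was not called in control (-0.47, or -0.77 and called without naive replicate 1). Bach2 and Bcl6, which oppose plasma cell differentiation, fell in DKO (-1.22 and -1.74) and in control (-0.97 and -2.24). Pou2af1, the octamer coactivator, rose from 1154 and 1128 to 2760.3 and 2853 CPM in DKO (1.30) and also rose in control (0.80). None of these 4 differences was called, except that of Pou2af1 without naive control replicate 2 (0.64). Tcf4, the E protein E2-2, rose in control from 105 and 122 to 256 and 230.5 CPM and went from 189 and 229 to 155 and 143 CPM in DKO, which was called only without naive replicate 1 (-0.62; difference -1.59 ± 0.242, edgeR adjusted p = 0.00062). Irf8 fell in DKO from 1114 and 1168 to 673 and 686 CPM (-0.75, or -0.57 and not called with voom and quantile normalization) and was at 677 and 599.98 and 629.7 and 637 CPM in control (-0.74 ± 0.176, edgeR adjusted p = 0.018). Both Tcf4 and Irf8 are high in pDC, their naive DKO levels exceeded those of control, and the part of the pDC markers in these differences was not tested. Foxo1, which keeps lymphocytes quiescent, fell in control from 562 and 513 to 279 and 214 CPM and stayed at 374 and 429.5 and 413 and 363 CPM in DKO (1.07 ± 0.206, edgeR adjusted p = 0.004).

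Leaving quiescence was shared. Of 20 quiescence and homing genes, none rose and 17 fell in DKO (median -1.40), and none rose and 19 fell in control (median -1.37). Klf2, a regulator of lymphocyte trafficking, fell in both (-1.16 and -1.21), and Tsc22d3, the glucocorticoid-induced leucine zipper gene, fell from 204 and 170.3 to 19.5 and 6.58 CPM in DKO and from 363 and 489 to 18.9 and 27.6 CPM in control. The difference was called for 3 more positive and 3 more negative members, against 4.46% and 7.46% of all genes. No positive difference was called without cultured DKO replicate 1, cultured control replicate 1, naive DKO replicate 2 or naive control replicate 2. Of 16 BCL2 family genes, 4 rose and 5 fell in DKO, near the 26.2% and 27.2% of all genes. In control 8 rose and 4 fell, against 24.7% and 23.8% of all genes. A more negative change in DKO was called for 5 (3 without cultured control replicate 2), against 7.46% of all genes, and a more positive one for 2, against 4.46%. The antiapoptotic Bcl2l1 rose in both (2.44 and 1.93) and the proapoptotic Bmf fell in both (-3.000 and -4.55). Bbc3, the gene of PUMA, rose in control from 4.05 and 4.01 to 16.4 and 17.98 CPM and was at 9.83 and 10.5 and 13.98 and 11.7 CPM in DKO (-1.75 ± 0.341, edgeR adjusted p = 0.0044).

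Interferon-stimulated genes fell in both genotypes. Of 20, 19 fell in DKO (median -4.17) and 19 in control (median -4.46, or -4.30 with the gene at 0 set to its bound), and edgeR called no difference (1 of 20 had an unadjusted p under 0.05, and DESeq2 called 1). Irf7, the amplifier of interferon production, fell from 65.8 and 105 to 1.94 and 1.35 CPM in DKO and from 80.8 and 124 to 1.66 and 3.20 CPM in control. Immediate early genes did not fall alike. Of 20, 7 rose and 10 fell in DKO (median -0.49), 3 rose and 12 fell in control (median -1.65), and 8 had a more positive change in DKO. The 7 became 4 without cultured DKO replicate 1, and the 8 became 5 without naive control replicate 1 or naive DKO replicate 2. Jun (Entrez ID 16476, chromosome 4 from 95049036 to 95052222 of GRCm38), a component of AP-1, rose from 33.8 and 32.9 to 257 and 193 CPM in DKO (2.76 ± 0.284) and was at 108 and 52.8 and then 74.1 and 86.3 CPM in control, where a rise was called only without naive replicate 1 (0.60). The difference was 2.76 ± 0.386 (edgeR adjusted p = 0.0003), and the change of PU.1 cKO was 2.66 and that of SpiB KO 1.22. Junb fell in control from 434 and 247 to 97.01 and 82.3 CPM and was at 138 and 126 and then 127 and 143 CPM in DKO, not called. Fos fell in both (-3.03 and -5.77), with naive control libraries that differed widely (195 and 40.2 CPM).

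The rises of largest size in DKO started from silence. Csrp3, a muscle LIM protein gene, went from no count in naive DKO cells to 258 and 312 CPM, at least 3222-fold higher, and in control from no count to 1.16 and 1.10 CPM, at least 10.2-fold. Insm1, a zinc finger transcription factor gene, and P2rx3, of an ATP-gated channel, reached 142 and 114 CPM and 147 and 153 CPM in DKO and 39.9 and 29.7 CPM and 23.1 and 19.7 CPM in control. Ptgir, the prostacyclin receptor, reached 40.5 and 44.4 CPM in DKO and 2.74 and 4.00 CPM in control, and Nov 22.5 and 22.3 and 1.99 and 2.10 CPM. Each of these had no more than 4 counts over the naive libraries of a genotype. Among the falls of largest size were those of Cd7, of a lymphoid surface receptor (522 and 437 CPM to 0, at least 3316-fold lower), Siglech (at the levels given above), Klk1 (117 and 125 CPM to 0), P2ry14 (70.8 and 51.7 CPM to 0) and Gdpd3 (26.8 and 45.8 CPM to 0). In control all but Gdpd3 fell as well, from lower naive levels (31.1 and 13.4 CPM for Cd7 and 19.4 and 8.39 CPM for Klk1). Siglech and Klk1 stand on the pDC marker list, and the fall of these 5 genes went with that of the list.

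The most negative differences from control included those of Alox5ap (-6.65), Gdpd3, Ppfia4, Smim5 and Upb1. Over both DKO libraries of a stage, Ppfia4 went from 3396 naive counts to 3 after culture. Smim5 went from 3305 to 1 and Upb1 from 1622 to 2. Other large negative differences were those of genes called in opposite directions in DKO and control. Havcr1 fell from 47.1 and 37.2 to 0.714 and 0.721 CPM in DKO and rose from 11.9 and 5.47 to 33.3 and 32.5 CPM in control, and Lifr, the receptor of leukaemia inhibitory factor, fell from 32.6 and 30.6 to 1.84 and 0.902 CPM and rose from 5.93 and 7.22 to 46.8 and 54.7 CPM. Both are on the pDC marker list, both were higher in naive DKO than in naive control cells, and both had cultured control levels far above the cultured DKO ones. Cfp, properdin of the complement system, fell from 23.1 and 16.7 to 3.37 and 3.25 CPM in DKO and rose from 23.1 and 14.01 to 75.6 and 87.4 CPM in control. Its naive levels were alike, unlike those of Dirc2 (159 and 130.4 CPM in naive DKO and 30.3 and 18.5 CPM in naive control) and Cdh1 (35.3 and 50.9 and 4.05 and 1.31 CPM). Btnl1, a butyrophilin-like gene, rose in control from 2.33 and 2.41 to 30.1 and 30.5 CPM and fell in DKO from 2.12 and 1.21 to 0.714 and 0.631 CPM, a fall that was not called without naive DKO replicate 1 (-0.85). In SpiB KO Cfp and Btnl1 rose (1.59 and 3.13), and in PU.1 cKO they were at -1.66 and 0.14, of which only the first was called. Among rises larger in DKO, Csf1, the macrophage growth factor, went from 4.37 and 7.62 to 153 and 71.4 CPM against 5.93 and 11.9 to 11.4 and 9.29 CPM in control, Phlda1 from 2.38 and 2.76 to 23.8 and 36.5 CPM against 3.98 and 4.74 to 2.66 and 3.70 CPM, and Muc1 from 0.514 and 0.110 to 43.2 and 38.8 CPM against 0.525 and 0.292 to 2.82 and 1.10 CPM. Rn45s, Rn18s and Lars2 also had called larger rises in DKO, but these rest on the 2 Rn45s-rich libraries: without cultured DKO replicate 1 their changes in DKO were 0.09, 0.01 and 0.25, and without naive control replicate 1 their differences were 0.56, 0.41 and 0.32.

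In the single knockouts 7465 genes were called in the PU.1 cKO (55.5%) and 6775 in the SpiB KO (50.4%). Cultured PU.1 cKO replicate 2 held 61640683 counts, against 9828967 in cultured PU.1 cKO replicate 1. Depth thus differs between the genotypes, and these numbers do not compare the breadth of their responses. The change of DKO differed from that of PU.1 cKO for 648 genes (4.82%), 188 of them more positive (1.4%) and 460 more negative (3.42%). From that of SpiB KO it differed for 912 genes (6.78%), with 442 more positive (3.29%) and 470 more negative (3.5%). These counts and the 1603 against control use the same DKO libraries and are not independent of each other.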

How the data were processed

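Gene counts from RNA-seq were deposited by the authors as raw counts for 27179 Entrez genes, in 1 table for naive and LPS + IL-4 cells and 1 for CD40L + IL-4 cells, beside log2 RPKM values that the authors computed with limma. Per the labels, reads were aligned with Subread to GRCm38 (mm10) and counted with featureCounts over RefSeq genes; versions and the strand setting are not given in the sources used here. The log2 RPKM values served 1 alternative filter only.

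Groups were taken from the labels. The 16 libraries of naive and CD40L + IL-4 cells (8 groups of 2) were fitted together in edgeR 4.0.16 (R 4.3.3) with TMM factors, genes at 0.5 CPM or more in at least 2 libraries, 8 residual degrees of freedom, quasi-likelihood F tests (two-sided) and Benjamini-Hochberg adjustment; the SE was taken as the fold change on the log2 scale over the square root of F. Genes without a symbol (517) stayed in the fit. The test was checked on simulated counts, with changes set for a small part of the genes in the cultured DKO libraries only. Far more genes changed in the data, so that check does not bear on the TMM scaling used here. Depth sets the precision: groups with no count were given a floor of 3 counts over both libraries, ratios on 1 to 3 counts a 95% counting interval, and both cover counting error only. Bcl2a1 and immunoglobulin genes share sequence with near copies and are uncertain.

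The members, the 24 gene lists and the 11 cell type lists were chosen with earlier results of these data known. Named genes were Spi1 and Spib, the 6 largest rises and falls, the 8 largest differences from control in each direction, up to 6 genes called in opposite directions, in each list up to 4 members with the largest change and 3 with the largest difference, and genes that the study names; 38 further list members were chosen after their values were seen. Some genes that the rule names are not reported here. Alternatives were DESeq2 1.42.0, library size without TMM, voom with quantile normalization (limma 3.58.1), no filter, other sets of libraries, a replicate block, no Rn45s, a stricter adjusted p and each library left out; a replicate block within each stage was added after seeing the data. The LPS + IL-4 libraries entered 1 alternative only, that with all 24 libraries. Promoters and coordinates are from RefSeq (GRCm38.p6).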

Additional observations from a re-analysis of the deposited data

Results flagged for a closer look

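The change from naive to CD40L + IL-4 cells differed between DKO and control, by edgeR's test of the difference itself (adjusted p under 0.15 and more than 1.5-fold), for 87 of the named genes with counts in every group. They are given as the log2 change in DKO minus that in control. The named genes were chosen in part for this difference, so their number says nothing of how common it is. Among receptors, signalling and antigen presentation the difference was 1.60 for Il4ra, -2.40 for Il13ra1, 1.31 for Il5ra, 1.25 for Map3k14, 1.04 for Bcl3, 0.63 for Nfkbib, 0.91 for Cd69, 1.03 for Pdcd1lg2, -2.01 for Cd44 and 1.21 for Fcer2a. For genes of the BCR and its inhibitors, of microbial receptors and of MHC class II processing it was -1.20 for Cd72, -1.50 for Fcgr2b, -1.18 for Pik3ap1, -0.79 for Ptpn6, -0.86 for Lyn, -0.85 for Malt1, -0.81 for Prkcb, -0.61 for Blnk, -2.11 for Tlr9, -1.25 for Ly86 and -2.01 for Lgmn. For transcription factors and immediate early genes it was -1.11 for Spi1, -1.68 for Spib, -1.59 for Tcf4, -0.74 for Irf8, -2.36 for Mef2b, 1.07 for Foxo1, 2.76 for Jun, 1.96 for Junb, 2.97 for Dusp1, 2.18 for Klf4 and -1.19 for Nfil3. For homing and survival it was 1.11 for Ccr7, -0.94 for Txnip, -1.75 for Bbc3, 1.55 for Bmf, -1.88 for Bcl2a1d and 1.40 for Pim2. For plasma cell genes, immunoglobulins and ER proteins it was 1.48 for Prdm1, 0.76 for Xbp1, 0.80 for Irf4, 1.51 for Ell2, 2.61 for Cebpb, 2.34 for Ighg1, 2.45 for Ighg2c, 1.20 for Ighm, 1.90 for Igkc, 1.39 for Hyou1, 1.04 for Hspa5, 1.52 for Creld2, 1.12 for Pdia6, 1.01 for Calr, 0.80 for Dnajb11, 1.15 for Sdf2l1 and 0.87 for Hsp90b1.

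For division, DNA repair and growth it was -3.19 for Ccnd1, -1.74 for Ccnd2, -1.03 for Cdkn2c, -0.90 for E2f2, -1.96 for Tyms, -0.60 for Prim2, -2.24 for Espl1, 0.72 for Mad2l1, 0.74 for Nop14, -0.81 for Ung, -1.11 for Apex1 and -1.03 for Prkdc. For metabolism it was 1.44 for Slc2a3, -4.34 for Slc16a3, -0.97 for Lss, -0.95 for Mvd, -1.11 for Scd1 and -0.99 for Scd2. For further genes with large differences it was 4.00 for Csf1, 4.78 for Muc1, 4.01 for Phlda1, 3.47 for Rgs1, -6.65 for Alox5ap, -7.78 for Havcr1, -7.49 for Lifr, -4.72 for Cfp, -4.75 for Dirc2, -4.28 for Cdh1 and -4.96 for Btnl1. For the transcripts tied to the Rn45s-rich libraries it was 4.04 for Rn45s, 4.30 for Rn18s and 3.85 for Lars2. Havcr1 and Lifr stand on the pDC marker list, and their naive level was higher in DKO. Both rose in control, where Siglech and Klk1 of the same list had no count after culture. The part of pDC in these differences was not tested.

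Beside the genes whose lost calls stand with their results, the call of the difference was lost without cultured control replicate 1 for Ccr7 (1.08), Cd69 (0.69), Hsp90b1 (0.81), Ighg2c (2.78), Klf4 (2.20), Lss (-0.65), Nfkbib (0.50), Pdcd1lg2 (1.05), Prim2 (-0.68), Rn18s (5.51), Rn45s (5.07) and Slc16a3 (-4.14). Without cultured DKO replicate 1 it was lost for Ccr7 (0.80), Hsp90b1 (0.82), Ighg2c (2.74), Klf4 (1.22), Lars2 (1.46), Nop14 (0.81), Pdcd1lg2 (0.92), Prim2 (-0.57), Rn18s (0.79), Rn45s (0.95) and Slc16a3 (-4.90). Without cultured control replicate 2 it was lost for Bcl2a1d (-1.63), Ccnd1 (-2.88), Ccr7 (1.14), Hsp90b1 (0.92), Ighg2c (2.21), Klf4 (2.16), Lars2 (3.23), Nfil3 (-1.12), Nop14 (0.64), Pdcd1lg2 (1.02), Prim2 (-0.52), Rn18s (3.65), Rn45s (3.44), Slc16a3 (-4.52) and Txnip (-0.89). Without cultured DKO replicate 2 it was lost for Bcl2a1d (-1.61), Bmf (1.38), Hsp90b1 (0.90), Ighg2c (2.05), Nfil3 (-0.99), Nfkbib (0.41), Nop14 (0.67), Prim2 (-0.64), Slc16a3 (-3.91) and Txnip (-0.68). Without naive control replicate 1 it was lost for Ccr7 (1.005), Cd69 (0.72), Dusp1 (1.72), Lars2 (0.32), Nfil3 (-0.95), Nfkbib (0.60), Pdcd1lg2 (0.87), Rgs1 (1.47), Rn18s (0.41), Rn45s (0.56) and Slc16a3 (-5.59). Without naive DKO replicate 1 it was lost for Bcl2a1d (-1.55), Ccr7 (1.16), Hsp90b1 (0.69), Ighg2c (2.33), Klf4 (2.13), Lars2 (4.00), Lss (-0.87), Nfil3 (-0.69), Nfkbib (0.70), Nop14 (0.57), Pdcd1lg2 (1.05), Prim2 (-0.61), Rn18s (4.72), Rn45s (4.40), Slc16a3 (-4.02) and Txnip (-0.71). Without naive control replicate 2 it was lost for Bcl2a1d (-1.63), Ccr7 (1.21), Hsp90b1 (0.74), Ighg2c (1.35), Klf4 (2.11), Lss (-0.87), Nfkbib (0.66), Nop14 (0.43), Prim2 (-0.42), Slc16a3 (-3.67) and Txnip (-0.84). Without naive DKO replicate 2 it was lost for Ccr7 (1.06), Cd69 (0.81), Dusp1 (2.53), Ighg2c (2.59), Klf4 (2.23), Lars2 (3.72), Nfkbib (0.55), Pdcd1lg2 (1.01), Prim2 (-0.59), Rn18s (3.96), Rn45s (3.75) and Slc16a3 (-4.63).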

How the results depend on the processing

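The number of genes called in DKO lay between 5836 and 7321 over the alternatives and between 6579 and 7200 with 1 library left out, against 7176. In control it lay between 5337 and 6674, and between 5902 and 6513 with 1 library left out, against 6509. For the difference it lay between 1173 and 1720 with 1 library left out and was 1969 with all 24 libraries, against 1603; at an adjusted p under 0.05 it was 914, 344 positive and 570 negative. DESeq2 called 6936, 6306 and 1632 genes. Voom with quantile normalization split the difference into 702 and 920, and library size without TMM into 458 and 1340. No value of a named gene that was called in the full data changed sign. The change of Mef2b in DKO, not called in the full data, was called in opposite directions with different libraries left out. Of 187 named genes with counts for a change in DKO, between 176 and 187 stayed on their side of the threshold in each alternative, and of 181 differences between 155 and 179.

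Replicate numbers recur in every group. Samples of the same number did not deviate together between the stages (correlations of deviations from -0.12 to -0.0058 over 16 pairs of groups, -0.02 in DKO and -0.04 in control). Within a stage some did: the correlation was over 0.1 for 4 of 6 pairs of naive groups (0.053 to 0.20) and 3 of 6 of cultured groups (-0.063 to 0.204), and control and DKO had 0.20 when naive and 0.0013 when cultured. With the replicate number as a block 7161 genes were called in DKO, 6483 in control and 1614 for the difference. With a replicate block within each stage, chosen after seeing the data, the counts were 7222, 6597 and 2042; the difference was then also called for Batf, Cr2, Egr3, Fos, Ltb, Nbn, Slamf7, Socs3, Syk and Tpx2, and no longer for Rn18s and Rn45s.

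With 2 libraries a group, small differences are not detectable, genes silent in a group have only bounds, and the stage cannot be told apart from the table that holds it.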

Other observations

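In naive cells the summed markers of 5 other cell types were higher in every library without Spib (DKO and SpiB KO, the latter without Cre) than in every library with it (control and PU.1 cKO). For pDC the sums were 3017 and 2681 CPM in DKO and 2561 and 1995 CPM in SpiB KO, against 432 and 262 CPM in control and 393 and 342 CPM in PU.1 cKO. For macrophages and granulocytes, with 7 of 18 markers tested, they were 1044 and 1069 and 822 and 824 CPM, against 249 and 130.1 and 232 and 207 CPM. For T cells they were 711 and 714 and 528 and 441 CPM, against 149 and 94.6 and 225 and 223 CPM. For conventional dendritic cells they were 171 and 149.7 and 131 and 116 CPM, against 60.2 and 26.99 and 35.9 and 33.6 CPM. NK cell markers were closest, at 290.3 and 181 and 259 and 180.01 CPM against 167 and 73.4 and 170.3 and 60.6 CPM. After culture Cfp, Btnl1 and Csrp3 stood at 3.37 and 3.25, 0.714 and 0.631 and 258 and 312 CPM in DKO, at 4.39 and 3.52, 1.62 and 0.714 and 0.0954 and 0.776 CPM in PU.1 cKO, and at 34.1 and 38.04, 22.6 and 15.7 and 83.4 and 95.6 CPM in SpiB KO.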
